A study of Mus musculus with 18 samples.

Results

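The retinas of diabetic and normoglycemic mice that had both received NACET were compared in 11 of the 18 libraries of the series, namely 5 Akita + NACET and 6 WT + NACET libraries, chosen by the genotype and treatment in their labels. Of 34800 gene names, 16183 were expressed highly enough to be tested. Akita mice (C57BL/6-Ins2Akita/J) are diabetic because insulin from 1 mutated copy of the gene Ins2 misfolds. WT mice were C57BL/6J animals without the mutation, and all mice were males. NACET, an ester form of N-acetylcysteine, was given to both groups in drinking water at 0.33 mg/mL, for a daily intake of 50 mg/kg, from 4 to 24 weeks of age. The 7 remaining libraries, 3 from WT and 4 from Akita mice on plain water, served to show where a level stood without the drug and to test whether the difference between genotypes changed with it. The RNA came from whole retina, so that fewer cells of a type and less RNA per cell cannot be told apart. Counts per gene do not check the genotype, since the mutation changes a single base, and Ins2 itself was below the level tested, with 13 reads in all Akita + NACET libraries together and 32 in all WT + NACET libraries together.

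High glucose burdens the retina by several routes. It feeds the polyol and glycation pathways, raises the output of reactive oxygen species by mitochondria, and is accompanied by reactive changes in Müller glia and microglia, by capillary damage and by loss of neuronal function. N-acetylcysteine compounds supply cysteine for glutathione, and the main inducible antioxidant programme of the cell is driven by the transcription factor NRF2, which KEAP1 holds back. The comparison asks which differences between diabetic and normoglycemic retina were present while both received the drug.

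Between 13624704 and 17627218 reads were counted in genes per library. Defining markers of rods, cones, bipolar, amacrine, ganglion, horizontal and Müller cells were read in every library. Some libraries stood apart. WT + NACET replicate 5 held 26819 CPM (counts scaled to the normalized library size) summed over lens genes, against at most 76.2 CPM in the other WT + NACET libraries, and Akita replicate 2, Akita + NACET replicate 3 and Akita + NACET replicate 5 held 3238, 1387 and 386.5 CPM, with at most 40.2 CPM in the other libraries of their groups. The share of uniquely aligned reads outside annotated exons was 15.4%, 16.9%, 14.3%, 15.7% and 19.8% in Akita + NACET replicates 1 to 5, and 9.55% at the lowest, 12.6% at the median and 16.5% at the highest in WT + NACET. Akita + NACET replicate 5 was the highest and the groups overlapped. The means differed by 3.67 percentage points (exact two-sided permutation test, p = 0.0455, adjusted p = 0.146 over 7 library measures). Since this share moved with many results, calls are also given from a fit that carries it as a covariate, and its part in them was not tested beyond that.

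Differentially expressed genes (DEGs) were called at an adjusted p of at most 0.05 in the quasi-likelihood test of edgeR with Benjamini-Hochberg adjustment over all tested genes. There were 2148 DEGs between Akita + NACET and WT + NACET, 13.3% of the tested genes, of which 973 (6.01%) were higher and 1175 (7.26%) lower in Akita + NACET. Most differences were small, with a median absolute log2 fold change of 0.45, or 1.36-fold, and 218 DEGs passed 2-fold, 110 higher and 108 lower. The libraries of the groups did not overlap for 1296 genes (8.01%), of which 1072 were DEGs. Group membership accounted for 24.4% of the squared distance among the 11 libraries (exact permutation test, p = 0.00216, the smallest that 462 arrangements give). With the outside-exon share as a covariate 194 genes (1.20%) were called, and 178 of them were among the 2148 with the same direction. Omitting Akita + NACET replicate 5 left 860 DEGs, replicate 4 of that group 1343 and replicate 2 of it 1368. Of the WT + NACET libraries, omitting replicate 3 left 1124 and replicate 5 left 1266.

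Many of the largest differences were in genes for which the WT + NACET libraries stood apart from every other library of the series. The WT + NACET libraries lay all above or all below the 12 others for 192 genes (1.19% of those tested), 126 above and 66 below. The Akita + NACET libraries lay apart from the 13 others for 40 genes (0.247%), 11 above and 29 below, the Akita libraries from the 14 others for 218 genes (1.35%) and the WT libraries from the 15 others for 71 (0.439%). Of the 1072 DEGs without overlap, 182 (17.0%) had the WT + NACET libraries apart and 39 (3.64%) the Akita + NACET libraries. Among these DEGs the Akita libraries were apart for 6 and the WT libraries for 1. Of the 19 genes named for the size of their change, the WT + NACET libraries were apart for 12 and each other group for 0. Both sets were chosen for no overlap between Akita + NACET and WT + NACET, which favours these groups over the untreated ones as the group apart. The low counts for Akita and WT in these sets therefore follow in part from that choice. For such genes an effect of genotype under NACET and a property of the WT + NACET animals cannot be told apart.

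Acp1, which encodes a low molecular weight tyrosine phosphatase (mm9, chr12:31578191-31596477, minus strand), had 35.3, 30.9, 34.4, 34.4 and 28.3 CPM in Akita + NACET replicates 1 to 5, and 2.05 at the lowest, 2.25 at the median and 3.14 CPM at the highest in WT + NACET. Every Akita + NACET library was far above every WT + NACET library, and WT (26.7 to 40.1 CPM) and Akita (33.5 to 38.5 CPM) stood with the former. The log2 fold change was 3.72 ± 0.12 (SE; edgeR quasi-likelihood test, adjusted p = 1.12e-14), a 13.2-fold difference. Gm9493 (mm9, chr19:23694232-23694810, plus strand) had 36.5, 33.2, 37.6, 36 and 18 CPM against 2.72 to 4.02 CPM in WT + NACET, and 28.5 to 38.7 CPM in the 7 libraries without NACET. It was 9.59-fold higher in Akita + NACET, although replicate 5 was well below the rest of its group. Rec8, a cohesin subunit known from meiosis (mm9, chr14:56236874-56244232, plus strand), had 8.54, 4.54, 5.23, 5.9 and 4.9 CPM against 0 to 1.29 CPM, and 3.32 to 6.4 CPM without NACET. It gave the largest increase of the genes named, with a log2 fold change of 4.48 ± 0.54 (edgeR, adjusted p = 0.000107). Glb1l3, a relative of beta-galactosidase, had 102, 86.9, 97.5, 89.3 and 68.3 CPM against 24 to 39.8 CPM, 3.07-fold higher. Tmem116, which encodes a membrane protein, had 21 to 28.8 CPM against 7.57 to 14.3 CPM, 2.29-fold higher. Reads were counted without regard to strand, and Acp1, Gm9493 and Tmem116 overlap genes on the opposite strand whose reads cannot be told apart there.

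Wdfy1, which encodes an endosomal protein (mm9, chr1:79698837-79772718, minus strand), gave the smallest p of the genes named. Its level was 15.4, 16, 16.8, 14.8 and 17 CPM in Akita + NACET and 89 at the lowest, 94.6 at the median and 103 CPM at the highest in WT + NACET. The 7 libraries without NACET lay between 12.4 and 15.5 CPM, close to Akita + NACET, and the gene was 5.94-fold lower in Akita + NACET than in WT + NACET (log2 fold change -2.57 ± 0.08, edgeR adjusted p = 7.95e-15). Mrpl44 overlaps it on the opposite strand. Fn3krp, which encodes a fructosamine-3-kinase-related protein that acts on early glycation products (mm9, chr11:121282715-121292602, plus strand), had 6.27, 6.66, 6.57, 5.53 and 8.23 CPM in Akita + NACET, 29.2 to 70.7 CPM in WT + NACET and 5.55 to 7.78 CPM without NACET. It was 8.02-fold lower, and its levels varied widely within WT + NACET. The long noncoding RNA 6430562O15Rik had 28.4 to 37.7 CPM against 67.2 to 95.5 CPM, 2.47-fold lower, and it overlaps Mrps27 on the opposite strand.

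For Thg1l, which encodes the enzyme that adds a guanosine to histidine tRNA, both groups on NACET stood apart. It had 6.27, 6.01, 6.25, 6.9 and 5.68 CPM in Akita + NACET, 10.7 to 13.2 CPM in WT + NACET and 7.23 to 9.61 CPM without NACET. The Akita + NACET libraries were thus the lowest of all 18 and the WT + NACET libraries the highest, and the log2 fold change was -0.96 ± 0.10 (edgeR, adjusted p = 1.14e-05). Slc6a2, the noradrenaline transporter gene, was lower but at a low level, with 0.196 to 0.62 CPM against 1.76 to 3.19 CPM (log2 fold change -2.81). The remaining genes of this size were Tmem181b-ps, Krt6a, 2410018L13Rik, E230001N04Rik, Psca and 3110053B16Rik, with log2 fold changes from 1.71 to 3.48, and Gm4419, Cox8b, Steap4, Edn2, Bcl3, Tyr and Scarna2, with log2 fold changes from -2.21 to -3.02. Of the genes named for size or for smallest p, Krt6a, 2410018L13Rik, Psca, 3110053B16Rik, Cox8b and Tyr were not called with the covariate.

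**Figure D1:**
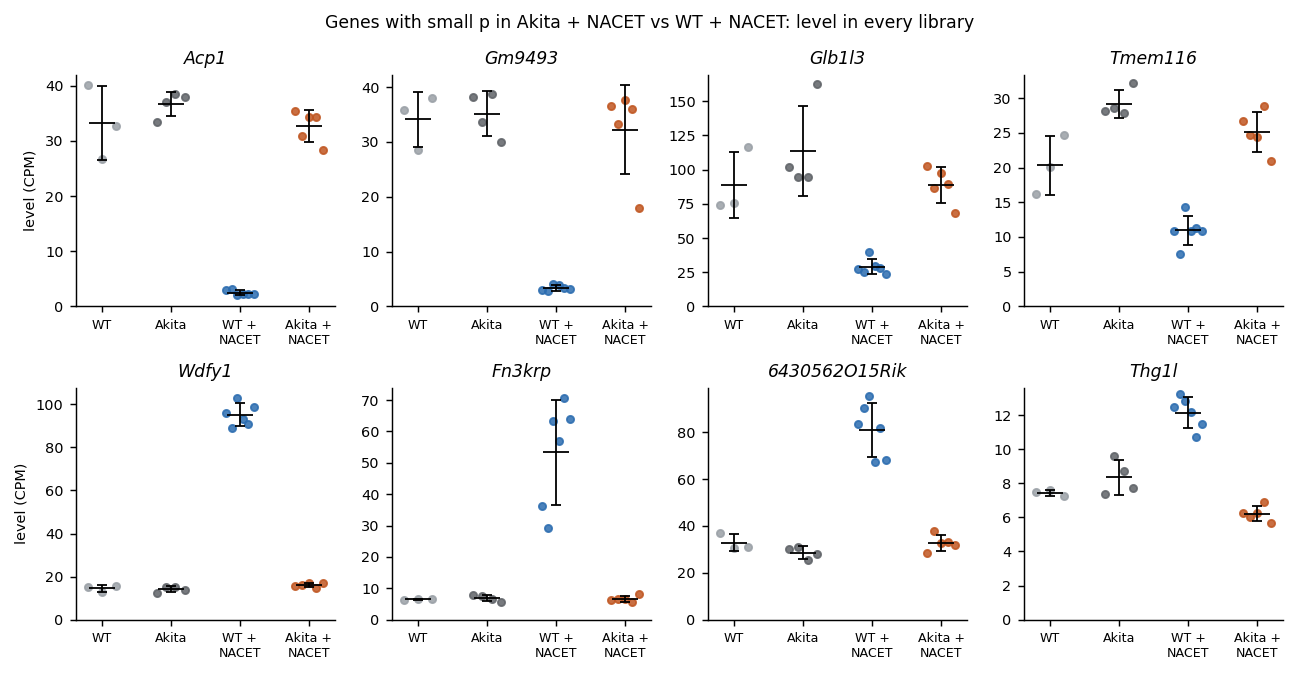
Level in CPM (vertical axis) of 8 genes in each of the 18 libraries, grouped from left to right as WT, Akita, WT + NACET and Akita + NACET, with 1 point per library and bars for the mean ± SD. For Acp1, Gm9493, Glb1l3 and Tmem116 the WT + NACET points lie below all others, and for Wdfy1, Fn3krp, 6430562O15Rik and Thg1l above all others.

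Akita and WT mice on plain water gave 1237 DEGs (7.64%) in the same fit. These calls rested on single libraries, since there were 0 DEGs without WT replicate 1 or without WT replicate 2, with 3021 and 3241 genes at an unadjusted p under 0.05 in edgeR, and 234 without Akita replicate 4. There were 148 with these groups fitted alone and 0 with the outside-exon share as a covariate, with 2022 genes at an unadjusted p under 0.05, and DESeq2 called 2065. That comparison shares no library with the one under NACET. Of the genes higher in Akita + NACET, 35.5% also had a positive fold change without NACET, and of the lower genes 27.1% also had a negative one, against a same-sign share of 39.5% over all tested genes. The median log2 fold change without NACET was -0.14 for the higher and 0.11 for the lower genes. There were 202 genes that were DEGs in both comparisons, 9.40% of those under NACET and 16.3% of those without, and in 177 of them the directions were opposite. In the fits with 0 DEGs without NACET no gene was called in both, without Akita replicate 4 it was 64 genes, 47 of them opposite, and with each comparison fitted alone 35 genes, 31 of them opposite. Of the 596 genes lower in Akita without NACET, 115 (19.3%) were higher in Akita + NACET, and of the 641 genes higher without NACET, 62 (9.67%) were lower. The interaction of genotype with NACET uses all groups and so shares libraries with both comparisons. It was called for 3289 genes (20.3%) and for 1246 (58.0%) of the 2148 DEGs. With the covariate it was called for 17 genes, all among the 2148, and without WT replicates 1 and 2 for 1699 and 1730 genes, of which 886 and 863 were among the 2148. Interaction calls of the gene lists below are from the fit without the covariate, and with it the interaction was called for 0 members of every list described except Fn3krp and Wdfy1.

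The remaining 25 genes were DEGs in the same direction with and without NACET, 21 higher and 4 lower in Akita. For none of them was the interaction called by edgeR, and its lowest adjusted p was 0.0846, for Ube2t. Choosing genes called in the same direction in both comparisons of this fit made an interaction call unlikely from the start. Its absence therefore does not show that the difference was unchanged by the drug. With the covariate 12 of the 25 were called under NACET and 0 without NACET. No gene was called without NACET when WT replicate 1 or 2 was left out, so that 0 of the 25 were called in both, and 12 were without Akita replicate 4. Igf2, which encodes an insulin-like growth factor (mm9, chr7:149836673-149852721, minus strand), had 20.9, 16, 16, 16 and 14.4 CPM in Akita + NACET and 9.65 at the lowest, 10.1 at the median and 10.8 CPM at the highest in WT + NACET. Without NACET it had 17.4 to 20.5 CPM in Akita and 9.88 to 12 CPM in WT, so that every Akita library was above every WT library. The log2 fold change was 0.71 ± 0.10 with NACET (edgeR, adjusted p = 0.000249) and 0.74 ± 0.13 without (adjusted p = 0.0117). Hdc, which encodes the enzyme that makes histamine, had 83.4, 77.8, 76.7, 90.7 and 84.8 CPM against 47.3 to 64.7 CPM, with log2 fold changes of 0.62 ± 0.10 and 0.79 ± 0.13 with and without the drug. Col4a3, a collagen chain of basement membranes, had 314, 247, 238, 243 and 259 CPM against 129 to 194 CPM, with log2 fold changes of 0.71 ± 0.13 and 0.68 ± 0.16. These groups did not overlap under NACET. Akr1b8, an aldo-keto reductase related to aldose reductase, had 2.41, 3.3, 3.32, 3.29 and 1.89 CPM against 0.795 to 1.72 CPM, with log2 fold changes of 1.18 ± 0.25 and 1.65 ± 0.36. Cry1, a repressor of the circadian clock, had 141, 120.1, 108, 113 and 106 CPM against 75.7 to 90.2 CPM, with log2 fold changes of 0.51 ± 0.09 and 0.46 ± 0.12. Lower in both were Rian, a noncoding RNA of an imprinted locus, Spon1, which encodes a secreted matrix protein, the mannosidase gene Manea and 1190005F20Rik, with log2 fold changes from -0.34 to -0.64 under NACET. Hdc, Ube2t, Spon1, Manea and 1190005F20Rik were named after their values were seen. Igf2, Hdc, Col4a3, Akr1b8, Cry1 and Spon1 were among the genes called under NACET with the covariate, and Rian and Manea were not.

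**Figure D2:**
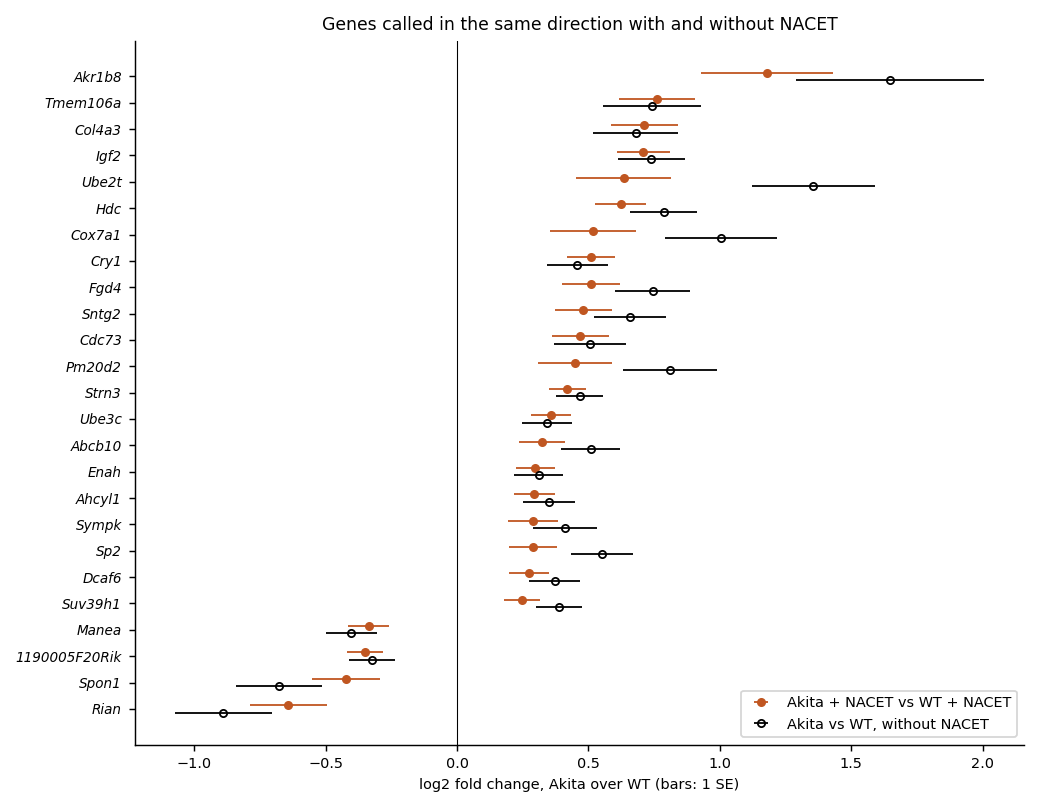
Log2 fold change of Akita over WT (bars 1 SE) with NACET and without NACET for the 25 genes called in the same direction in both comparisons. Of these genes, 21 are positive and 4 negative in both, and Akr1b8 is the farthest from 0 with NACET at 1.18.

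Gliosis is the reactive change of Müller cells and astrocytes. Of 17 tested genes listed for it, 10 were lower in Akita + NACET and 0 higher. The median log2 fold change was -0.98, where the median of all tested genes was at 0. Which cells expressed each member was not tested. Gfap, the filament protein gene of reactive glia, had 87.7, 63.2, 79.2, 50.5 and 25.9 CPM in Akita + NACET and 129 at the lowest, 183 at the median and 269 CPM at the highest in WT + NACET. The groups did not overlap, and WT (33 to 78.6 CPM) and Akita (33.2 to 117 CPM) lay below every WT + NACET library. The log2 fold change was -1.65 ± 0.36 (edgeR, adjusted p = 0.0104), and it was not called with the covariate (edgeR, adjusted p = 0.118). Edn2, an endothelin gene, had 3.58, 4.07, 3.32, 2.92 and 4.25 CPM against 9.99 to 41.9 CPM, 5.3-fold lower. The IκB family member Bcl3, the cytokine receptor Osmr, the cytokine signalling inhibitor Socs3 and the transcription factor Cebpd were also lower, and with Edn2 these were the 5 members called with the covariate. A2m, Cd44, Gbp2 and Serpina3n completed the 10. As a mean of log2 CPM over the members, each centred on its mean over the 18 libraries, the list stood at -0.21, -0.17, -0.26, -0.45 and -0.42 in Akita + NACET and at 0.21 to 0.85 in WT + NACET. WT lay at -0.62 to 0.02 and Akita at -0.52 to -0.10, so that WT + NACET was the group that stood apart. The interaction was called for 5 of the 10, against 58.0% of all DEGs.

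Of 15 microglial genes 9 were lower and 0 higher, with a median log2 fold change of -0.67. Ctss, which encodes the lysosomal protease cathepsin S, had 14.5, 17.4, 19.7, 18.1 and 14.6 CPM against 23.4 to 34.9 CPM, with a log2 fold change of -0.78 ± 0.15 (edgeR, adjusted p = 0.00394). C1qa, a subunit of the complement component that starts the classical pathway, had 2.48, 3.48, 4.59, 3.54 and 1.96 CPM against 5 to 7.96 CPM. Both were without overlap. Without NACET the means were 16.7 CPM in WT and 18.4 CPM in Akita for Ctss, and 3.98 and 3.88 CPM for C1qa. These were nearer to Akita + NACET (16.9 and 3.21 CPM) than to WT + NACET (29 and 6.39 CPM). The list mean was 0.14 to 0.60 in WT + NACET and -0.53 to 0.03 in Akita + NACET. It was -0.39 to 0.27 in WT, overlapping WT + NACET, and -0.78 to 0.17 in Akita. The lower members also included C1qb, C1qc, the growth factor receptor gene Csf1r, the chemokine receptor gene Cx3cr1, Trem2 and Tyrobp. With the covariate 0 of the 15 were called, at a median of -0.58, and 3 were lower when Akita + NACET replicate 5 was omitted and 5 when WT + NACET replicate 5 was. Of 13 complement genes C4b and C3 were lower, and C4b had 7.17, 6.66, 5.62, 4.1 and 4.11 CPM against 9.25 to 26.3 CPM. Its mean was 7.43 CPM in WT and 6.49 CPM in Akita without NACET, against 19.6 CPM in WT + NACET. Among 24 interferon and MHC class I genes 5 were lower, including Bst2, an antiviral membrane protein gene (2.41-fold), and B2m (1.86-fold), and H2-K1 was higher (log2 fold change 0.39). The lower count here was 2 without any 1 of Akita + NACET replicates 1, 4 and 5 and WT + NACET replicate 5. The cytokine genes Il1b and Il6 were below the level tested, with 2 and 1 reads in all Akita + NACET libraries together and 9 and 1 in all WT + NACET libraries.

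For the lower gliosis genes, RefSeq promoters of build GRCm38.p6, a later build than that of the counts, were searched from 250 bases before to 50 bases after the start site for TTCNNNGAA, the letters that STAT factors recognize, which read the same on both strands. The letters were present in 8.30% of all 32851 promoters. Of the 10 lower genes 8 matched by symbol, and 2 of these held the letters, Gfap (chr11:102897151-102897450, minus strand) and Socs3 (chr11:117969317-117969616, minus strand), while A2m and Cebpd had no entry. Both are shown, with the letters in capitals, because they are a filament gene and an inhibitor gene that were lower in Akita + NACET.
Gfap: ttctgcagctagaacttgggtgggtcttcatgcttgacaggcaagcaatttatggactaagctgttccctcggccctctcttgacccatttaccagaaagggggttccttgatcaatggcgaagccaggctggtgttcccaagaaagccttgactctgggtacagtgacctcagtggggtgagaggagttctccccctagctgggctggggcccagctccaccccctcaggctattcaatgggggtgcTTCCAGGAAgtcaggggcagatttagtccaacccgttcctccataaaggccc
Socs3: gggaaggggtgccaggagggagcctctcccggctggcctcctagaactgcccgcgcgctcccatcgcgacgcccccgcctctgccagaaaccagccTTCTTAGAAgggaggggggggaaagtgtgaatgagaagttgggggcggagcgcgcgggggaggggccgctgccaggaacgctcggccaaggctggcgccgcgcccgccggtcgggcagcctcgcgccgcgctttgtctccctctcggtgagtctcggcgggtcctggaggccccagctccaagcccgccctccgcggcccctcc

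Cone genes were lower in 6 of 12 tested members, with a median log2 fold change of -0.31. Gnb3, the beta subunit of cone transducin, had 340.3, 356, 359, 353 and 364 CPM in Akita + NACET and 513 at the lowest, 569 at the median and 615 CPM at the highest in WT + NACET. The libraries without NACET held 285 to 442 CPM, so that WT + NACET was above all others, and the log2 fold change was -0.68 ± 0.09 (edgeR, adjusted p = 0.000149). Gngt2, the gamma subunit, had 78.7, 83.2, 98.1, 91 and 63.4 CPM against 108 to 145 CPM. Here Akita + NACET was below all others, since the libraries without NACET held 102 to 131 CPM. Gnat2, Opn1sw, Pde6c and Pde6h, the other lower members, had log2 fold changes from -0.50 to -0.82. Gnb3 and Gngt2 were the members called with the covariate.

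Rod genes were lower in 5 of 22, namely Rcvrn, Gngt1, Pde6a, Pde6g and Sag, which take part in rod phototransduction or its shutdown. Rcvrn had 1464, 1417, 1675, 1449 and 976 CPM against 1818 to 2564 CPM (log2 fold change -0.63 ± 0.15, edgeR adjusted p = 0.0112). With the covariate 0 of the 22 were called, the count was 2 without Akita + NACET replicate 5 and 3 without Akita + NACET replicate 2 or WT + NACET replicate 3, and the interaction was called for all 5 of the lower genes. Without NACET 7 rod genes were higher in Akita, and the median was 0.43. Among inner retinal markers, Prkca and Tacr3 of 15 bipolar cell genes and Onecut1 of 5 horizontal cell genes were higher. Of 15 ganglion cell genes 0 were called, and the ganglion cell marker Rbpms had a log2 fold change of 0.25 ± 0.17. Of 15 Müller glia genes, Clu and the glutamine synthetase gene Glul were lower, by 1.62-fold and 1.37-fold.

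**Figure D3:**
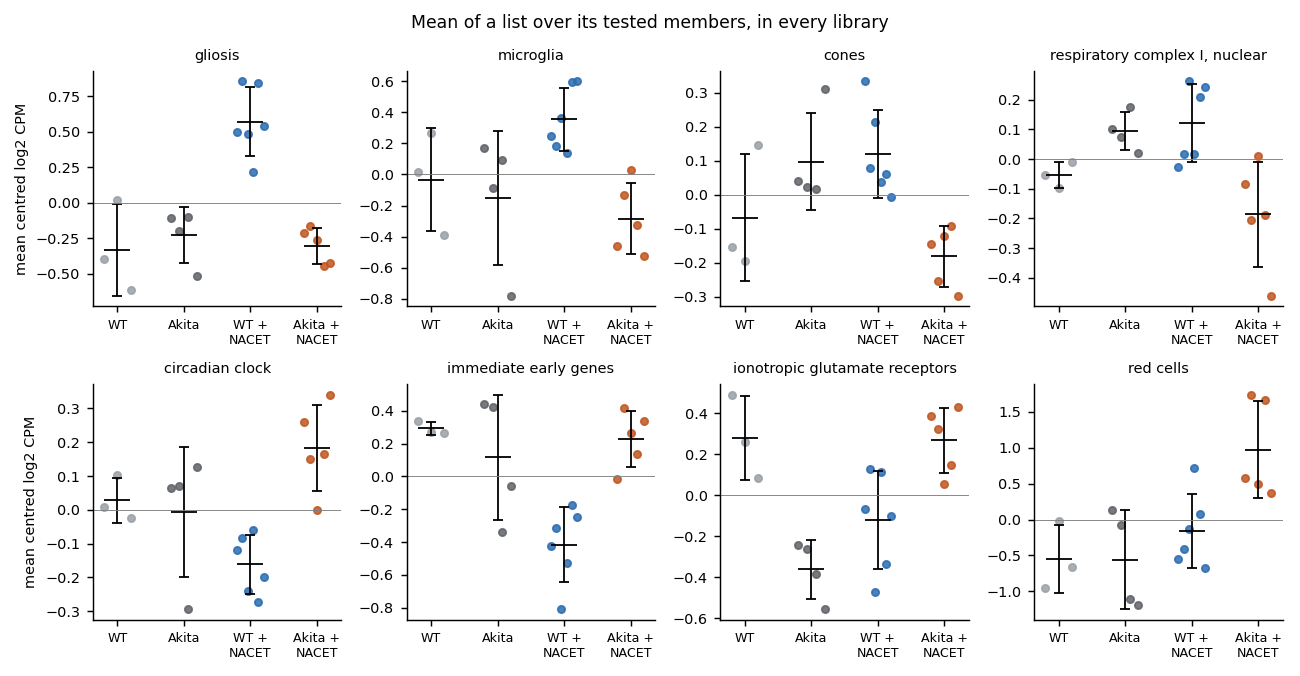
Mean over the tested members of 8 gene lists of log2 CPM, each gene centred on its mean over 18 libraries (vertical axis), with 1 point per library in the 4 groups and bars for the mean ± SD. The WT + NACET libraries lie above all others for gliosis, at 0.21 to 0.85, and Akita + NACET has the lowest mean for cones and complex I and the highest for red cells and the clock.

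Nuclear genes of the respiratory chain were lower in Akita + NACET. Of 36 genes of complex I, the NADH dehydrogenase, 23 were lower and 0 higher, and all 36 fold changes were negative, with a median of -0.32 on the log2 scale. Of 41 genes of complexes II to V, 26 were lower and 0 higher, again with all fold changes negative and a median of -0.34. Ndufb11, a subunit of complex I, had 192, 169.7, 204, 180.3 and 146 CPM in Akita + NACET and 224 at the lowest, 241 at the median and 269.9 CPM at the highest in WT + NACET. The groups did not overlap, the libraries without NACET held 188 to 233 CPM, and the log2 fold change was -0.45 ± 0.09 (edgeR, adjusted p = 0.00309). Uqcrq, a subunit of complex III, had 243, 232, 279, 234 and 211 CPM against 271 to 378 CPM, with overlap. As a list mean complex I stood at -0.08, -0.21, 0.01, -0.19 and -0.46 in Akita + NACET, where replicate 5, with the largest outside-exon share, was the lowest, and at -0.03 to 0.26 in WT + NACET. With the covariate 0 genes of either list were called and the medians were -0.12 and -0.15. Without Akita + NACET replicate 5 the counts were 9 and 10, and without WT + NACET replicate 3 they were 10 and 12. They were also at least 1.5 times smaller without Akita + NACET replicate 2 (14 and 15) or 4 (12 and 13) and without WT + NACET replicate 5 (12 and 14) or 6 (12 and 17). The interaction was called for 18 of the 23 and 23 of the 26.

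Of 79 ribosomal protein genes 10 were lower and 0 higher, including Rpl15 (22.8, 25.5, 28.3, 26.7 and 18.3 CPM in Akita + NACET against 30.5 to 40.05 CPM), and of 33 proteasome genes 6 were lower and 0 higher, including Psmb2 (1.29-fold). With the covariate 0 of either list were called, and the ribosomal count was 4 to 6 without any 1 of Akita + NACET replicates 2, 4 and 5 and WT + NACET replicates 3, 5 and 6. The proteasome count was 14 without Akita + NACET replicate 3. Ribosomal protein genes have many processed pseudogenes and reads with several alignments were not counted, so that their counts are uncertain.

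Higher and lower genes differed in length. The median genomic span was 39.1 kb for the higher and 11.7 kb for the lower genes, against 20.4 kb over all tested genes, and 23.8%, 5.67% and 13.3% spanned more than 100 kb. Among genes under 5 kb 3.50% were higher and 10.2% lower, and among genes of 100 to 200 kb 11.1% were higher and 3.25% lower. The median GC content was 50.2% for the higher and 49.8% for the lower genes. Among genes called with the covariate the median spans were 25.1 kb for the higher and 18.4 kb for the lower. Reads from introns fall among those outside exons, and the mean share of such reads was the larger in Akita + NACET, as given above.

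**Figure D4:**
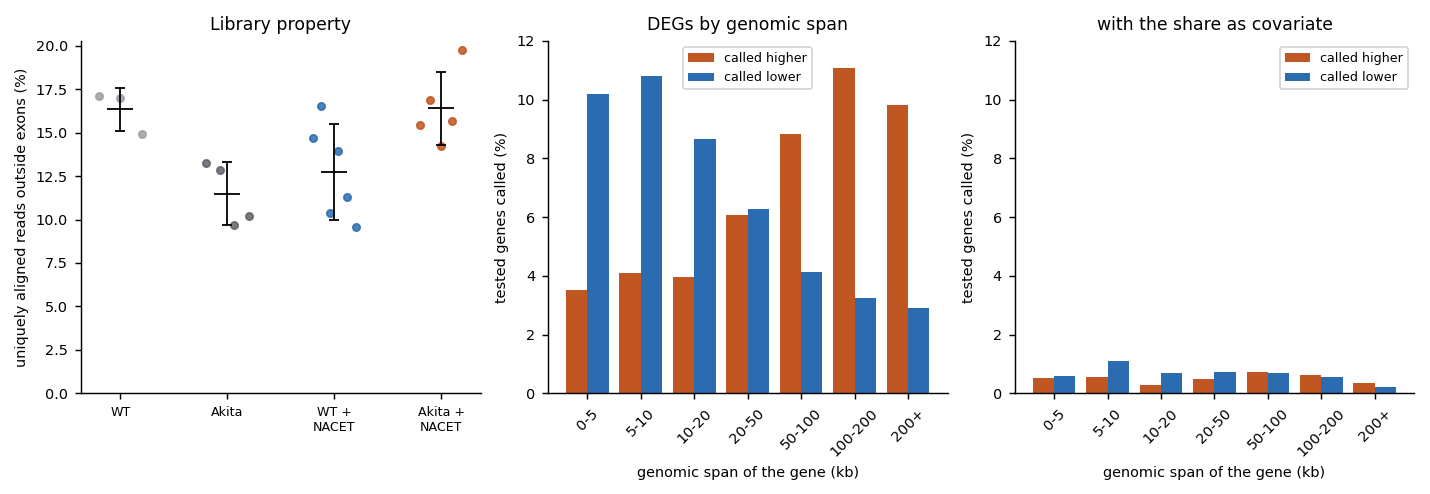
Share of uniquely aligned reads outside annotated exons per library (percent, mean ± SD of the 4 groups), and percent of tested genes called higher or lower in Akita + NACET by genomic span in kb, without and with that share as covariate. The percent called higher goes from 3.50% under 5 kb to 11.1% at 100 to 200 kb, and with the covariate no span class has more than 1.09% called in either direction.

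Genes of neuronal receptors and channels were among the higher ones. Ionotropic glutamate receptor genes had 4 higher of 17 tested and 0 lower, with a median log2 fold change of 0.49. Gria2, the AMPA receptor subunit that limits calcium entry, had 83.4, 88.1, 72.4, 79.2 and 114 CPM in Akita + NACET and 47.3 at the lowest, 59.3 at the median and 81.1 CPM at the highest in WT + NACET. The groups overlapped, and the log2 fold change was 0.49 ± 0.13 (edgeR, adjusted p = 0.0203). It was not called without Akita + NACET replicate 5. Without NACET the order was the opposite, with 44 to 51.4 CPM in Akita and 85.4 to 107 CPM in WT, and the interaction was called (edgeR, adjusted p = 0.000724). Grid1, Grik2 and Grin3a were the other higher members. The list of voltage-gated sodium and calcium channel genes had 5 higher of 34. These were the sodium channel genes Scn1a, Scn3a, Scn8a and Scn9a and the cation channel gene Hcn3, with no calcium channel gene among them. Potassium channel genes had 6 higher of 31 (among them Kcna1, Kcna3, Kcnc1 and Kcnd3). In both lists 0 were lower, and the medians were 0.34 and 0.23. The interaction was called for all of these higher genes. With the covariate 0 genes of the 3 lists were called, and the medians were 0.20, 0.14 and 0.14. When Akita + NACET replicate 5 was left out, the higher members numbered 2, 2 and 1 in place of 4, 5 and 6. Glutamate receptor genes numbered 2 and potassium channel genes 3 without any 1 of Akita + NACET replicate 2 and WT + NACET replicates 3 and 5, and sodium and calcium channel genes 8 without WT + NACET replicate 2.

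Among 23 GABA and glycine receptor genes, 2 were higher, including Gabrr3, and Gabra2, a GABA-A receptor subunit, was lower, with 6.96, 7.19, 7.02, 7.02 and 7.71 CPM in Akita + NACET and 16.2 at the lowest, 19 at the median and 22.6 CPM at the highest in WT + NACET. The 7 libraries without NACET held 3.65 to 11.4 CPM, below every WT + NACET library. Its log2 fold change was -1.42 ± 0.18 (edgeR, adjusted p = 8.74e-05), and it was called with the covariate. Dlg4, which encodes the postsynaptic scaffold PSD-95, was lower too, with 237 to 264 CPM against 331 to 411 CPM, and was called with the covariate, while Dlgap4 and Nlgn2 of the same list of 33 were higher. The higher members were 8.70% of the GABA and glycine list and 6.06% of this one, near the 6.01% of all tested genes. Of 45 genes of splicing and RNA-binding proteins 9 were higher, including Srrm4, a regulator of neuronal microexons (1.64-fold), and 3 were lower, which became 3 higher and 0 lower without Akita + NACET replicate 5, and 4 higher and 1 lower without WT + NACET replicate 3 or 5. Of 37 genes of chromatin and long neuronal regulators 10 were higher and 0 lower, including Dst, Setd2 and Mycbp2, and the count was 2 without Akita + NACET replicate 5 and 3 to 6 without any 1 of Akita + NACET replicates 2 and 4 and WT + NACET replicates 3, 5 and 6. Malat1, a nuclear noncoding RNA, had 3876, 5949, 4156, 4933 and 6306 CPM against 1328 to 4215 CPM (log2 fold change 0.90 ± 0.25, edgeR adjusted p = 0.0262), with overlap, and was called in 7 of the 11 fits that left out a library. None of the splicing and chromatin genes, nor Malat1, was called with the covariate.

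**Figure D5:**
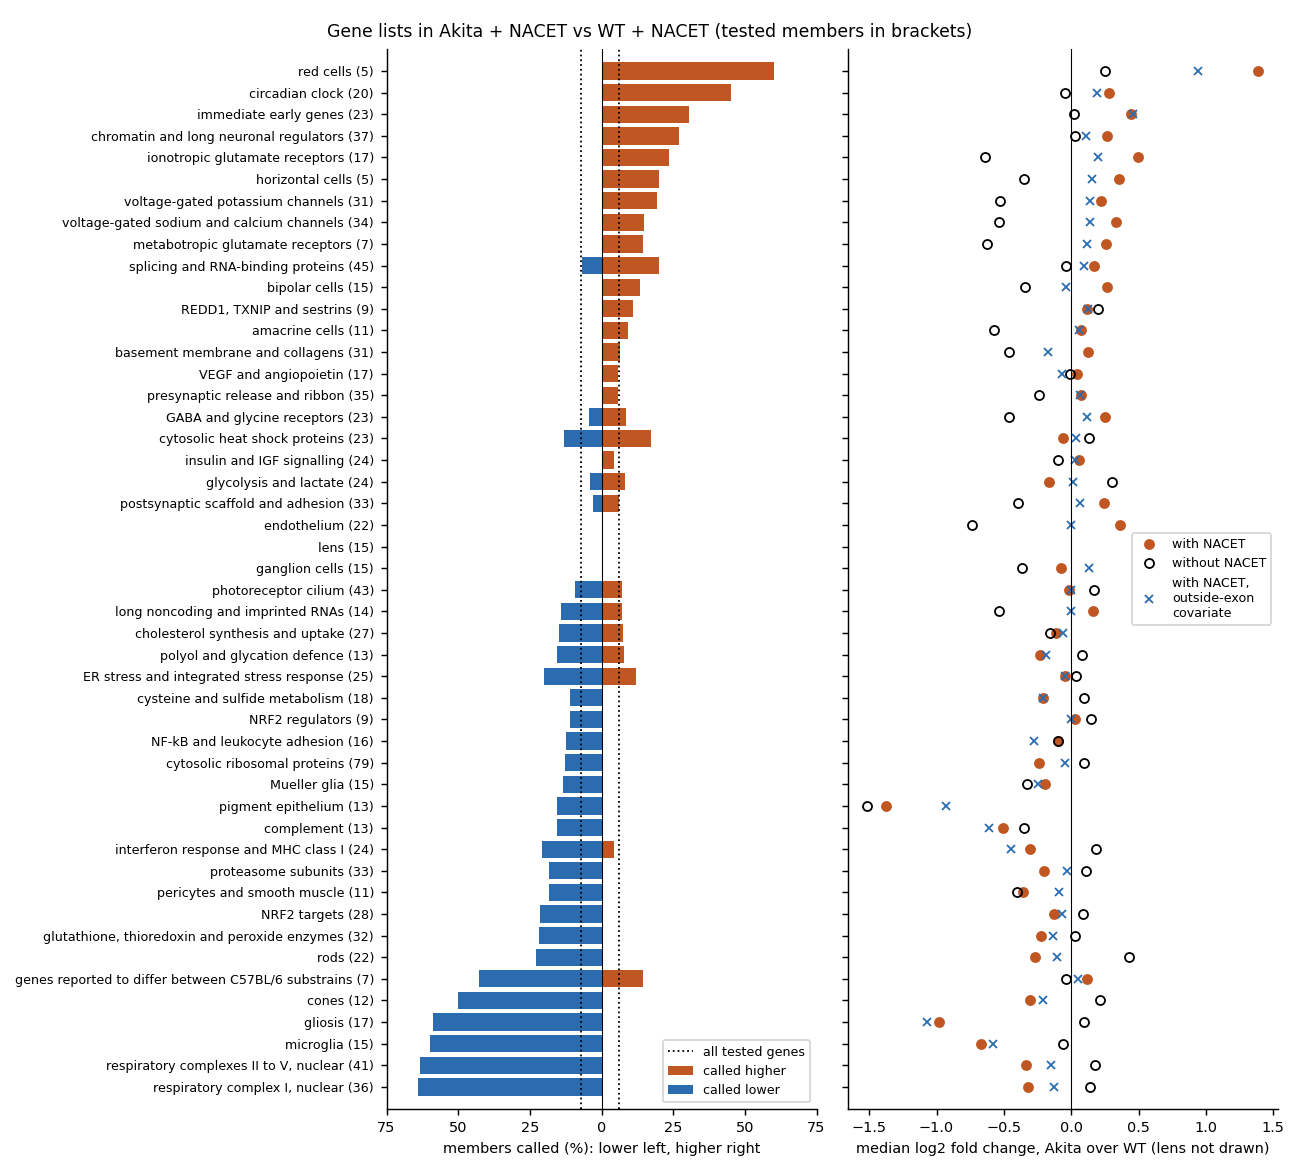
Percent of tested members of each list with at least 5 tested genes called lower or higher in Akita + NACET, with dotted lines at 7.26% and 6.01% of all tested genes, and the median log2 fold change of each list with NACET, without NACET and with NACET after the covariate (lens median not drawn). The share called lower is 63.9% for complex I, 60% for microglia and 50% for cones, and the share called higher is 45% for the clock.

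Circadian clock genes were higher in 9 of 20 tested members and lower in 0, with a median log2 fold change of 0.28. They were the clock repressors Per1, Per2, Per3, Cry1, Cry2 and Bhlhe41, the output factors Tef and Hlf, and the kinase gene Csnk1d. Cry2 had 140.3, 152, 132, 134 and 152 CPM in Akita + NACET and 96.2 at the lowest, 106 at the median and 114 CPM at the highest in WT + NACET. The groups did not overlap, the libraries without NACET held 110.4 to 139 CPM, and the log2 fold change was 0.43 ± 0.07 (edgeR, adjusted p = 0.00124). Tef had 196, 134, 134, 149.8 and 199 CPM against 98.1 to 119 CPM. Per1 and Per2 had log2 fold changes of 0.84 and 0.86. The list mean was 0.26, 0.15, -0.00, 0.16 and 0.34 in Akita + NACET and -0.27 to -0.06 in WT + NACET, without overlap. With the covariate Cry1 and Cry2 were called, and the interaction was called for 7 of the 9. The time of day at which retinas were taken is not given in the sources used here.

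The E-box CACGTG, at which the clock activators CLOCK and BMAL1 act and which reads the same on both strands, was present in 7.15% of the same RefSeq promoters of build GRCm38.p6. Of the 9 higher clock genes 7 had an entry, and 4 of these held an E-box, namely Per1, Cry1, Tef and Bhlhe41, while Per2 and Csnk1d had no entry. Of the 17 tested clock genes with an entry the same 4 held it. Per1 (chr11:69098699-69098998, plus strand), Cry1 (chr10:85185005-85185304, minus strand) and Bhlhe41 (chr6:145865371-145865670, minus strand) are shown as repressors of the loop that were higher in Akita + NACET, with the E-box in capitals.
Per1: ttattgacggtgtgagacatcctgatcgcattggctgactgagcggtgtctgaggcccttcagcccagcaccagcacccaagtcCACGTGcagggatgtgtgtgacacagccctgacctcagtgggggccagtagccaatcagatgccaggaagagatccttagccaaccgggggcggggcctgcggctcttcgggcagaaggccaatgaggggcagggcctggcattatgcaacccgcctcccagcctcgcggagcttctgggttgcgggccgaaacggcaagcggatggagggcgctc
Cry1: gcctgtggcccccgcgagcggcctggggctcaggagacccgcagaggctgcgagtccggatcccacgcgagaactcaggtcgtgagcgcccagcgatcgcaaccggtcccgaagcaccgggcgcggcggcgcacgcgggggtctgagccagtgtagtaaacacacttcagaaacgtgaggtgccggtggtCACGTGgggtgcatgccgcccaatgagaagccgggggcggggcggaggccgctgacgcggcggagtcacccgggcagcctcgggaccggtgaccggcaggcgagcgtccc
Bhlhe41: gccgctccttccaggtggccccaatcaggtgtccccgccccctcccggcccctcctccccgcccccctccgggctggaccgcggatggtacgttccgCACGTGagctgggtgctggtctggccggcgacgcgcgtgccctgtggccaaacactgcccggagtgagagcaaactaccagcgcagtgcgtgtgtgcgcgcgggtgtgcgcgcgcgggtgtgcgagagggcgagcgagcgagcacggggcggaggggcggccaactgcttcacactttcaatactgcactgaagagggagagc

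Immediate early genes, which respond to activity and stress within minutes, were higher in 7 of 23 and lower in 0, with a median of 0.44. Dusp1, which encodes a phosphatase of MAP kinases, had 49.5, 65.4, 63.4, 45.6 and 46.8 CPM in Akita + NACET and 21.2 at the lowest, 27.6 at the median and 34.6 CPM at the highest in WT + NACET. The libraries without NACET held 39.6 to 68.3 CPM, so that the WT + NACET libraries were the lowest of all, and the log2 fold change was 0.96 ± 0.15 (edgeR, adjusted p = 0.000786). Atf3, a stress transcription factor gene, had 11.9, 31.4, 27.1, 41.4 and 25 CPM against 8.93 to 12 CPM, with overlap. Ier2, Klf2, Klf4, Npas4 and Nr4a1 were the other higher members. Dusp1 and Atf3 were called with the covariate, and the count was 2 without Akita + NACET replicate 5, 4 without WT + NACET replicate 5, and 3 when Akita + NACET replicate 2 or WT + NACET replicate 3 was omitted.

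Of 9 NRF2 regulators, Rbx1, a ubiquitin ligase subunit, was lower. Nfe2l2, the gene of NRF2, had 35.7, 26.6, 27.4, 25.7 and 27.1 CPM in Akita + NACET and 27.1 at the lowest, 30.2 at the median and 32.5 CPM at the highest in WT + NACET, with a log2 fold change of -0.08 ± 0.09 (edgeR, adjusted p = 0.597). The groups overlapped. Without NACET it was higher in Akita, with 31.9 to 43.2 CPM against 25 to 27 CPM in WT (edgeR, adjusted p = 0.0266), and the interaction was called (adjusted p = 0.0179). Keap1 had a log2 fold change of 0.03 ± 0.07. Of 28 NRF2 target genes 6 were lower and 0 higher, namely Hmox1, Txn1, Taldo1, Esd, Pgd and Prdx1. Hmox1, which encodes heme oxygenase, had 2.69, 3.36, 2.74, 2.67 and 1.57 CPM against 3.29 to 7.55 CPM, with overlap, and a log2 fold change of -0.76 ± 0.23 (edgeR, adjusted p = 0.0321). It was called in 7 of the 11 fits that left out a library. The targets Nqo1, Gclc, Gclm, Gsr and Txnrd1 were not called, with log2 fold changes of -0.42, 0.22, -0.08, 0.19 and -0.05. With the covariate 0 of the 28 were called. The count was 2 without Akita + NACET replicate 5 or WT + NACET replicate 5, and 3 without any 1 of Akita + NACET replicates 2 and 4 and WT + NACET replicate 3.

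Enzymes that use glutathione or thioredoxin to remove peroxides, with catalase, were lower in 7 of 32 and higher in 0, with a median of -0.23. Cat, the catalase gene, had 33.8, 30.6, 29.7, 28.8 and 27.2 CPM in Akita + NACET and 42.1 at the lowest, 45.9 at the median and 47.6 CPM at the highest in WT + NACET. The libraries without NACET, at 27.1 to 36.2 CPM, stood below WT + NACET as well, and the log2 fold change was -0.60 ± 0.08 (edgeR, adjusted p = 0.000138). Cat was the member called with the covariate. Gpx4, which reduces lipid peroxides, had 51.2, 44.9, 53.7, 51.4 and 33.1 CPM against 64.2 to 77.5 CPM, and with 54.4 to 81.9 CPM without NACET the Akita + NACET libraries were the lowest of all. Gpx1, Gstp1, Prdx2, Prdx3 and Prdx4 completed the 7. Of 18 genes of cysteine and sulfide metabolism, Ahcy and the sulfur dioxygenase gene Ethe1 were lower. Of 13 genes of the polyol pathway and glycation defence, Akr1b8 was higher and Fn3krp and Park7 were lower.

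Genes of protein folding moved in both directions. Of 25 genes of the ER and integrated stress responses, the transcription factor genes Atf4 and Xbp1 and the pseudokinase gene Trib3 were higher, and the chaperone and disulfide isomerase genes Calr, Canx, Hsp90b1, Pdia3 and Pdia6 were lower. Trib3 had 10.9, 16.3, 17.1, 22.4 and 16.1 CPM in Akita + NACET against 7.5 to 9.64 CPM (log2 fold change 0.96 ± 0.19, edgeR adjusted p = 0.00385). Canx, a chaperone of glycoproteins, had 623, 616, 623, 658 and 617 CPM against 759 to 832 CPM. Neither overlapped, and both were called with the covariate. Of 23 cytosolic heat shock genes, Hspa1a, Hspa1b, Hspa2 and Hsf2 were higher and Hspa4, Hspb6 and Hspe1 lower, and Hspa2 and Hspb6 were called with the covariate. The lower ER genes numbered 3 and the lower heat shock genes 1 without Akita + NACET replicate 5, the latter also without WT + NACET replicate 3, and the higher ER genes numbered 1 without Akita + NACET replicate 4. Hspa1a and Hspa1b are near-identical copies whose reads cannot be fully separated.

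Vegfa, the main growth factor of vessels, was higher, with 9.85, 9.08, 9.19, 9.76 and 17.2 CPM in Akita + NACET and 5.34 at the lowest, 6.2 at the median and 7.29 CPM at the highest in WT + NACET. The groups did not overlap, replicate 5 stood far above the rest, and WT without NACET held 7.95 to 10.6 CPM. Without NACET the means were 6.93 CPM in Akita and 9.1 CPM in WT, with a log2 fold change of -0.39 that was not called. With NACET the log2 fold change was 0.81 ± 0.16 (edgeR, adjusted p = 0.00338), and Vegfa was not called with the covariate (adjusted p = 0.142). Of 31 basement membrane and collagen genes, Col4a3 and its neighbour Col4a4 were higher, both also with the covariate. They were 6.45% of the list, against 6.01% of all tested genes. Col4a4 had 22.6, 21.2, 19.1, 17.3 and 19.3 CPM against 8.04 to 12.1 CPM, 1.92-fold. Of 22 endothelial genes 0 were called, and the tight junction gene Cldn5 had a log2 fold change of 0.73 ± 0.41. Of 11 genes listed for pericytes and smooth muscle, Rgs5 and Vtn were lower. Vtn had means of 1121 CPM in Akita + NACET and 1433 CPM in WT + NACET, and Rgs5 43.0 and 67.8 CPM. Which cells the Vtn reads came from was not tested. With the covariate 0 of the 11 were called. The lower count was 0 without any 1 of Akita + NACET replicate 5 and WT + NACET replicates 5 and 6. Ddit4, the gene of REDD1, had a log2 fold change of 0.25 ± 0.09 and Txnip, the gene of a thioredoxin inhibitor, -0.04 ± 0.31, and neither was called.

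Markers of neighbouring tissues also differed. Red cell genes had 3 higher of 5 tested, Alas2, Hba-a1 and Hbb-b2, with summed levels of 41, 96.5, 40.9, 97.2 and 35.7 CPM in Akita + NACET and 20.01 to 56.4 CPM in WT + NACET. The count was 1 without any 1 of Akita + NACET replicates 2 and 4 and WT + NACET replicates 3 and 6. Pigment epithelium genes had Tyr and Enpp2 lower of 13, with summed levels of 994, 798, 285, 770.2 and 196 CPM against 936 to 2195 CPM. Lens genes had 0 called of 15. The part of these markers in the results above was not tested.

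Of 8 genes reported to differ between C57BL/6 substrains 7 were tested. Nnt, a mitochondrial transhydrogenase gene whose C57BL/6J allele lacks several exons, had 9.23, 11.6, 10.8, 10.7 and 9.93 CPM in Akita + NACET and 16.3 at the lowest, 19.9 at the median and 23.8 CPM at the highest in WT + NACET. The libraries without NACET held 7.05 to 14.8 CPM, below every WT + NACET library, and the log2 fold change was -0.91 ± 0.15 (edgeR, adjusted p = 0.00121). Wdfy1, given above, and Crb1 (1.44-fold) were lower, and Entpd4 was higher (1.27-fold). Crb1 had means of 427 CPM in WT, 609 in WT + NACET, 622 in Akita and 422 in Akita + NACET. For Crb1 WT + NACET was thus not the group apart. Entpd4 had means of 110, 84, 103 and 106 CPM in the same order. Nnt and Wdfy1 were called with the covariate. The labels give C57BL/6J for all WT mice, and the genetic background was not tested. Among the autosomes chromosome 12 had the largest share of tested genes called, 18.8%, against 13.3% of all tested genes and 15.9% on chromosome 14. On chromosome 12 2.89% were called and over 2-fold, and on chromosome 15 2.15%, where 218 of all 16183 tested genes were. The spread between chromosomes was not tested.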

How the data were processed

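Whole-retina RNA was sequenced in 18 libraries. The authors aligned single-end reads of a poly(A)-selected, unstranded library to mm9 with TopHat 2.1.0 and deposited the HTSeq 0.11.2 count of uniquely aligned reads per gene. The 5 summary entries, an unnamed entry (0.00544% of counts on average) and 206 ribosomal RNA genes (0.977%) were removed here. Genes were kept by the edgeR 4.0.16 filter (minimum count 10, total 15), scaled by TMM and fitted in R 4.3.3 with a mean per group over all 18 libraries, which share an estimate of the spread, with the quasi-likelihood test, Benjamini-Hochberg adjustment and a threshold of 0.05. CPM values use the TMM-scaled library sizes. Nothing in the sources used here says whether animals were littermates, so p-values measure the spread between these libraries. Named genes were DEGs without overlap and with at least 1 CPM, the 10 largest and the 6 of smallest p per direction, up to 3 called genes per list and direction, and a fixed set of redox, glial and vascular genes. Some genes that this rule named are not reported here. The members and the 49 gene lists were chosen with earlier results of these data known. Alternatives were size factors, other filters, a replicate block, the outside-exon share, 2 groups, DESeq2 1.42.0 and leaving out each library. The procedure was tested on simulated counts. Deviations of same-numbered libraries had a correlation over 0.1 in 0 of 5 pairs.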

Additional observations from a re-analysis of the deposited data

Results flagged for a closer look

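Of 96 group values checked, 12 (12.5%) had a library set apart from its group by Dixon's gap criterion, where chance alone sets apart about 1 in 20. In WT + NACET the highest library was replicate 3 for Rec8 (1.29 CPM) and Glb1l3 (39.8 CPM), replicate 1 for E230001N04Rik (2.46 CPM) and replicate 6 for Keap1 (57.9 CPM). WT + NACET replicate 5 was the highest for Cox8b (10.04 CPM), Tyr (13.5 CPM), Hmox1 (7.55 CPM) and the lens genes (26819 CPM summed). In Akita + NACET replicate 5 was the lowest for Gm9493 (17.96 CPM) and the highest for Vegfa (17.2 CPM), replicate 1 was the highest for Nfe2l2 (35.7 CPM), and replicate 3 for the lens genes (1387 CPM summed).

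The interaction of genotype with NACET was called by edgeR for many of the genes named for size, for smallest p or in the fixed set. Of these 22 are given here. Where only the WT + NACET libraries stood apart, a change with the drug and a property of these animals cannot be told apart. The log2 fold change with NACET minus that without was 4.64 for Rec8, 3.57 for Acp1, 3.96 for Tmem181b-ps, 3.22 for Gm9493, 3.09 for 2410018L13Rik, 1.91 for 3110053B16Rik, 0.68 for Tmem116, 1.26 for Glb1l3, 1.20 for Vegfa and 2.83 for Cldn5. It was -2.44 for Gm4419, -3.09 for Fn3krp, -4.27 for Slc6a2, -2.71 for Steap4, -2.53 for Wdfy1, -1.99 for Edn2, -3.58 for Bcl3, -1.84 for Scarna2, -1.11 for 6430562O15Rik, -1.13 for Thg1l, -0.55 for Nfe2l2 and -2.11 for Gfap. The interaction was also called for 5 of 5 called rod genes, 5 of 6 cone genes and 6 of 7 glutathione, thioredoxin and peroxide enzymes. Among channel genes it was called for 5 of 5 in the sodium and calcium list, none a calcium channel gene, and 6 of 6 potassium channel genes. It was called for 18 of 23 complex I genes, 23 of 26 genes of complexes II to V, 6 of 10 ribosomal protein genes and 5 of 8 ER stress genes. It was called for 5 of 10 gliosis genes, 6 of 7 photoreceptor cilium genes, 7 of 9 clock genes and 9 of 12 splicing genes. The share over all 2148 DEGs was 58.0%, and the counts for gliosis, ribosomal protein and ER stress genes were near or below it. With the outside-exon share as a covariate 10 of these 22 genes were called, namely Acp1, Tmem181b-ps, Gm9493, Tmem116, Glb1l3, Fn3krp, Slc6a2, Wdfy1, 6430562O15Rik and Thg1l, and 0 of the list members counted above.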

How the results depend on the processing

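The 2148 DEGs under NACET became 194 with the outside-exon share as a covariate and 1363 with a replicate block, of which 1290 were shared. The numbers share only a label, since 0 of 5 Akita + NACET libraries had their own number as best partner. Leaving out 1 of the 11 libraries compared gave 860 to 2422, and leaving out 1 of the 7 others, which share the estimate of spread, 1942 to 2710. Omitting Akita + NACET replicate 2 gave 1368, replicate 4 gave 1343 and replicate 5 gave 860, while omitting WT + NACET replicate 3 gave 1124 and replicate 5 gave 1266. DESeq2 over all groups called 2765. Fitting these 2 groups alone gave 1145 higher and 1122 lower in place of 973 and 1175. The 3289 interaction calls became 17 with the covariate and 1699 to 3524 without 1 of the 18 libraries (1699 and 1730 without WT replicates 1 and 2). The 1237 DEGs without NACET became 2065 with DESeq2 over all groups, 148 with 2 groups, 507 with a replicate block and 0 with the covariate, and 0 to 1515 without 1 of its 7 libraries (0 without WT replicate 1 or 2, 234 without Akita replicate 4) and 912 to 1612 without 1 of the 11 others. The share of the squared distance stayed between 21.7% and 27.6% without a library, and the outside-exon difference between 2.82 and 4.43 percentage points. The causes were not tested. Of 148 named genes called, 38 were called in every alternative, and 0 reversed. Depth limits the named genes of a few CPM, such as Slc6a2 and Rec8.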

Other observations

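The remaining lists had few members called, where 6.01% of all tested genes were called higher and 7.26% lower. Of 24 genes of glycolysis and lactate transport, the neuronal glucose transporter gene Slc2a3 and the lactate transporter gene Slc16a7 were higher in Akita + NACET, with log2 fold changes of 0.45 and 0.58, and the enolase gene Eno2 was lower at -0.68. Eno2 had 194, 219, 198, 179 and 152 CPM against 194 to 385 CPM in WT + NACET. Of 27 cholesterol genes, Lss and the lipid exporter gene Abca1 were higher and Ebp, Hsd17b7, Nsdhl and Pmvk were lower, with log2 fold changes from -0.24 to -0.47. Of 16 genes of NF-kB and leukocyte adhesion, the adhesion molecule gene Icam1 and the receptor gene Tnfrsf1a were lower, at -1.41 and -0.97. Icam1 was at a low level, with means of 0.516 CPM in Akita + NACET and 1.39 CPM in WT + NACET. The lower count was 0 without any 1 of Akita + NACET replicates 1, 3 and 5 and WT + NACET replicates 1 and 5. With the covariate neither gene was called, and Vcam1 was called lower. Of 43 photoreceptor cilium genes 3 were higher (6.98%), including Pcdh15 and Rpgr, and 4 lower (9.30%), including Ift20, Ift57 and Rp2h. Both shares were near those of all tested genes. The counts of cilium genes were 1 higher and 1 lower, and that of lower cholesterol genes 2, without Akita + NACET replicate 5. Of 35 presynaptic genes Syn2 and Unc13b were higher (5.71%), and of 7 metabotropic glutamate receptor genes Grm4 was higher. Of 14 long noncoding and imprinted RNAs, Malat1 was higher and Rian and Sox2ot were lower. Fkbp5, a glucocorticoid-induced gene, was the called member of 9 genes around REDD1 and TXNIP at 0.79, Igf2 that of 24 insulin and IGF genes, and Vegfa that of 17 vascular growth factor genes, all higher. Of 2 skeletal muscle genes tested 0 were called.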
